A study of Rattus norvegicus with 224 samples.

Results

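The response of rat aortic smooth muscle cells to insulin was examined at 5 mM glucose after 6 h, by setting every array whose label names insulin, 6 h and normal glucose against every array whose label names the vehicle in place of insulin. These were 56 of the 224 arrays of the study, 28 with insulin and 28 with vehicle. The cells had been explanted from the aortas of newborn rat pups and made quiescent in low serum. They were then given 100 nM insulin, or phosphate-buffered saline as its vehicle, and 30 min later 1 of 7 drug conditions. These were dimethyl sulfoxide (DMSO, the solvent), 3 doses of rapamycin (0.01, 1 and 100 ng/mL) and 3 of paclitaxel (0.01, 1 and 1000 ng/mL), so 6 of the 7 conditions on both sides of the comparison carry a drug. Each combination was run in 4 replicate runs, A to D, which gave 28 pairs of arrays matched for run and drug. Whether a run means a separate culture or animal is not said in the labels, so p-values measure the spread between these arrays, which may be technical.

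Insulin acts on its receptor, a tyrosine kinase that works through phosphatidylinositol 3-kinase (PI3K) and the kinase AKT. AKT phosphorylates the FOXO transcription factors, which then leave the nucleus and stop driving their target genes, and it relieves the brake on the mTOR complex that rapamycin inhibits. In many cell types mTOR signalling raises HIF-1α, a transcription factor that drives glucose uptake and glycolysis. Cultured smooth muscle cells also carry receptors for insulin-like growth factor 1 (IGF-1), which bind insulin at high concentrations.

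Each array compared the cells, labelled with Cyanine-5, with reference RNA pooled from whole newborn pups, labelled with Cyanine-3. The deposited values are scores with mean 0 and SD 1 on every array, so a difference below is a number of array SDs and not a log2 fold change. Each feature had been centred close to 0 over the study, which means that a score says how a gene stands against its own average and not how strongly it is expressed. For the same reason the cell type named in the labels could not be checked by the level of smooth muscle markers. A higher score likely means more RNA in the cells than on the other arm, from the dyes. If the ratio had been formed the opposite way, every rise here would read as a fall. Among the 56 arrays the medians lay between -0.066 and 0.082 and the pairwise correlations between -0.387 and 0.654, and no pair was nearly identical. Among all 224 arrays, which share the fit below, 1 pair was nearly identical, and both arrays were kept. The number of arrays limits the precision, and the SE of the difference between arms had a median of 0.216.

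With insulin for 6 h, 10 of 23 listed genes of glycolysis and HIF-1 response were higher, by the test given next. Of 25 listed FOXO targets, 7 were lower. Both lists were chosen with earlier results of these data known. When each run counted as 1 observation, 0 members of either list passed. Of 11575 probes, 280 (2.42%) were called at an adjusted p under 0.05 in limma (two-sided, Benjamini-Hochberg, mean over the 7 drug conditions with run as a block). Of these, 132 were higher (1.14%) and 148 were lower (1.28%) with insulin. Among the 6502 genes with a symbol, each read from its first probe, 89 rose (1.37%) and 87 fell (1.34%). In bulk RNA of this kind, fewer cells of a type and less RNA per cell cannot be told apart.

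The runs carried this response unequally. The median difference over the probes that rose was 1.23 in run A and 1.28 in run C, against 0.569 in run B and 0.486 in run D. For the probes that fell the run medians were -1.27, -0.397, -1.47 and -0.555 in runs A to D. In all, 108 of the 132 rises and 107 of the 148 falls had the same sign in all 4 runs, a description of probes chosen on the mean of these runs. Across all 11575 probes the differences of 2 runs correlated weakly, with r = 0.264 for runs A and C, 0.241 for C and D, 0.118 for A and B, 0.067 for A and D, 0.0257 for B and C and -0.0519 for B and D. When each run counted as 1 observation, limma called 0 probes, with 1046 at an unadjusted p under 0.05 (1599 in the comparison above). Without run A 36 probes were called and without run C 29, against 432 without run B and 319 without run D. Of the 280 probes, 17 were called whichever single run was left out, and 11 of these had a gene symbol. Those were Pdk1, which rose, and Ypel3, Arg1, Glul, Tcp11l2, Psen2, Cdo1, Tmem63a, Maf1, Stap2 and Tnip1, which fell. Tmem63a, Maf1, Stap2 and Tnip1 are named because of this count, after their values were seen.

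Among those 11 genes, Maf1 encodes a repressor of RNA polymerase III, and it fell by 0.998 ± 0.182 (SE, adjusted p without each run at most 0.0406). Tnip1, an inhibitor of NF-κB signalling, fell by 1.27 ± 0.194. Stap2, an adaptor protein of cytokine and growth factor receptors, fell by 1.24 ± 0.203, and Tmem63a, an ion channel, fell by 1.04 ± 0.169.

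Genes of glucose transport and lactate export were among the largest rises. Slc2a1 encodes GLUT1, the glucose transporter of most growing cells. Its vehicle scores ran from -3.35 through a median of -0.725 to 2.26, and its insulin scores from -1.55 through 0.935 to 4.13. The arms overlapped as groups, but the insulin array was the higher in 27 of the 28 matched pairs. The mean rose by 1.96 ± 0.364 (SE, limma adjusted p = 0.000116), with run differences of 2.55, 1.64, 2.75 and 0.886 in runs A to D. Without run C it was not called (adjusted p = 0.0802). Slc16a3 encodes MCT4, which carries lactate out of the cell. It lay between -2.79 and 2.55 (median -0.088) with vehicle and between -1.36 and 4.90 (median 2.10) with insulin. It was higher in 24 of 28 pairs and rose by 2.30 ± 0.431 (adjusted p = 0.000122), most in run A (4.49) and least in run D (0.810). Without run A it was not called (adjusted p = 0.0861).

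Mitochondrial genes known to respond to HIF-1 rose beside them. Pdk1 encodes a pyruvate dehydrogenase kinase, which keeps pyruvate out of the mitochondrial citric acid cycle. Its vehicle scores ran from -2.22 through -0.0635 to 1.18 and its insulin scores from -0.159 through 0.996 to 4.29. It was higher in 25 of 28 pairs and in each run (2.53, 0.785, 2.18 and 1.38), and rose by 1.72 ± 0.299 (adjusted p = 2.88e-05). Bnip3, a receptor that marks mitochondria for autophagy, rose by 1.71 ± 0.387 and was higher in 24 pairs. Higd1a, a protein of the inner mitochondrial membrane induced by low oxygen, rose by 1.78 ± 0.432, and its other probe by 1.97 ± 0.410. Run C gave the largest Bnip3 difference (3.67) and run A the largest Higd1a difference (3.38), and without run C neither gene was called (adjusted p = 0.447 and 0.367), nor Higd1a without run A.

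**Figure D1:**
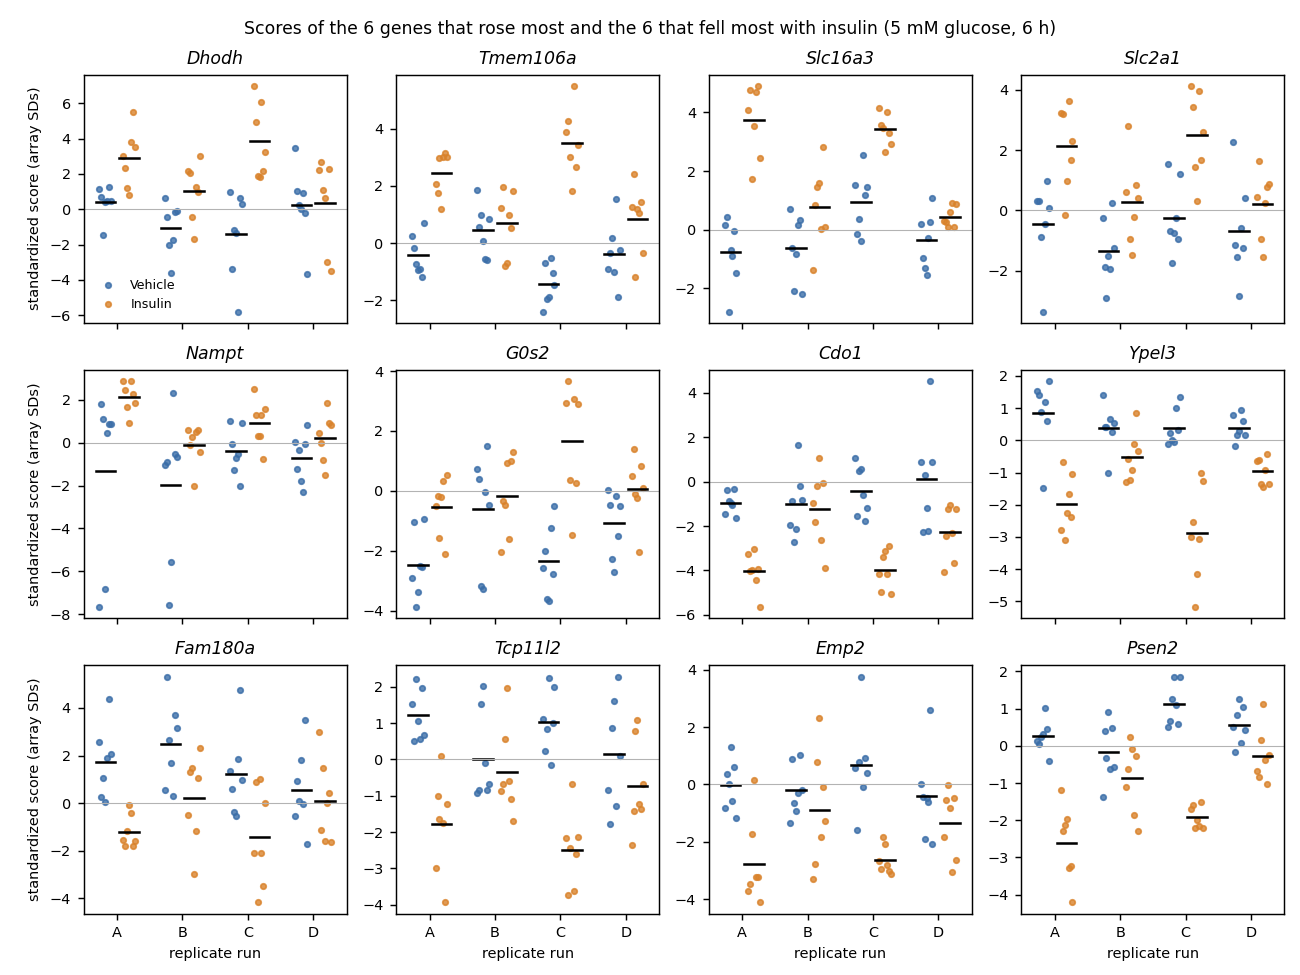
Standardized scores (array SDs) of the 6 genes that rose most and the 6 that fell most, among called genes with the same sign in 4 runs, for each of the 56 arrays by replicate run (blue, vehicle; orange, insulin; 7 arrays per arm and run, 1 for each drug condition). Black lines are means of 7 arrays; the arms lie farthest apart in runs A and C for most of the 12 genes, while Dhodh differed by 0.0941 in run D and Cdo1 by -0.204 in run B.

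Of 23 measured genes of glycolysis and HIF-1 response, 10 rose, 0 fell and 20 lay above 0. Their median difference was 0.697, against 0.0229 over all genes with a symbol, of which 1.37% rose and 53.5% lay above 0. Members of this list, as of the other lists here, were chosen with earlier results of these data known. Hk1, a hexokinase, rose by 0.992 ± 0.177 and was higher in 26 of 28 pairs. Gpi, glucose-6-phosphate isomerase, rose by 0.946 ± 0.267, and Pfkl, the liver form of phosphofructokinase, by 1.03 ± 0.207. Tpi1, triosephosphate isomerase, rose by 1.395 ± 0.330, Pgam1, phosphoglycerate mutase, by 1.45 ± 0.258 and Ldha, a lactate dehydrogenase subunit, by 1.35 ± 0.331. Other enzymes of the pathway did not pass the test. Aldoa (0.697), Pgk1 (1.15, adjusted p = 0.0737), Eno1 (0.501) and Pkm (0.658) had positive values, and Pfkm, the muscle form of phosphofructokinase, had -0.205. The transcription factor gene Hif1a itself was at 0.158 ± 0.273 and its angiogenic target Vegfa at -0.282 ± 0.337. Adm, the vasodilator peptide gene adrenomedullin, had the lowest value, -0.928 ± 0.282 (adjusted p = 0.0506). The list's median was 1.21 in run A, 0.230 in run B, 1.33 in run C and 0.390 in run D, and the count that rose was 4 without run A and 3 without run C.

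**Figure D2:**
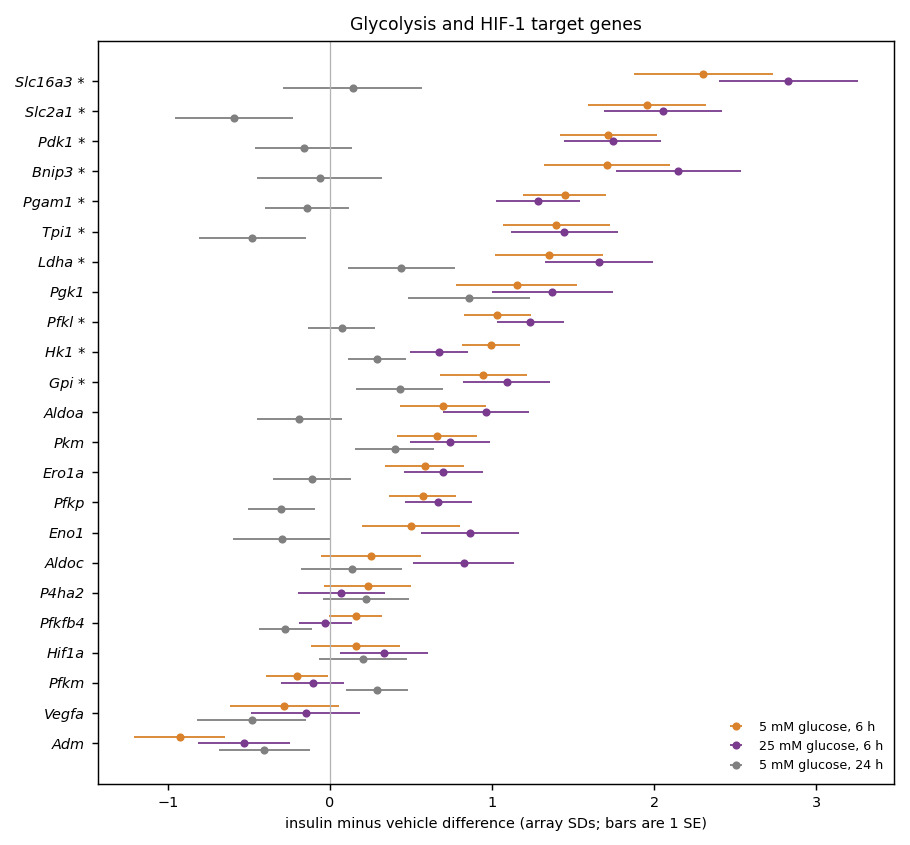
Insulin minus vehicle difference (array SDs, mean over 7 drug conditions; bars are 1 SE of the limma fit) for the 23 measured genes of glycolysis and HIF-1 response at 5 mM glucose and 6 h (orange), 25 mM glucose and 6 h (purple), and 5 mM glucose and 24 h (grey). Asterisks mark the 10 genes called at 5 mM glucose and 6 h; orange and purple points lie together for most genes, and Slc2a1 is at 1.96, 2.05 and -0.591 in the 3 conditions.

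Some of the listed FOXO targets fell. Of 25 measured, 7 fell (Cdo1, Ypel3, Glul, Klf15, Klhl24, Cdkn1b and Rbl2) and 1 rose (Bnip3, which is also a HIF-1 target). In all, 20 lay below 0, with a median of -0.400. Over all genes with a symbol 1.34% fell, 53.5% lay above 0 and the median was 0.0229. Members of this list were chosen with earlier results of these data known, so the counts describe the list and are not a test. Ypel3, a gene whose product slows cell growth, had the smallest adjusted p of all genes with a symbol. Its vehicle scores ran from -1.48 through a median of 0.484 to 1.84 and its insulin scores from -5.17 through -1.27 to 0.861. It was lower in 26 of 28 pairs, with run differences of -2.84, -0.897, -3.28 and -1.36, and fell by 2.09 ± 0.269 (adjusted p = 7.82e-09).

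Cdo1, Glul and Klf15 were 3 of the other falls. Cdo1 encodes cysteine dioxygenase, which starts the breakdown of cysteine. Its scores ran from -2.71 through -0.871 to 4.52 with vehicle and from -5.64 through -3.19 to 1.05 with insulin, lower in 23 of 28 pairs. It fell by 2.31 ± 0.390 (adjusted p = 1.502e-05), with -3.08, -3.53 and -2.41 in runs A, C and D and -0.204 in run B. Glul, glutamine synthetase, fell by 1.53 ± 0.234 (adjusted p = 1.24e-06) and was lower in 25 pairs. Klf15, a transcription factor of amino acid and glucose metabolism in muscle and liver, fell by 1.39 ± 0.260 (adjusted p = 0.000122), with -2.64, 0.109, -1.94 and -1.11 in the 4 runs. Klf15 was not called without run A (adjusted p = 0.167).

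The cell cycle inhibitor genes on the list fell less far. Cdkn1b, which encodes the cyclin-dependent kinase inhibitor p27, fell by 0.858 ± 0.224 (adjusted p = 0.0148) at its first probe, and its second probe gave -0.705 (adjusted p = 0.296). Rbl2, which encodes the retinoblastoma-like protein p130, fell by 0.845 ± 0.193, and Klhl24, a ubiquitin ligase adaptor, by 0.942 ± 0.250. Other textbook FOXO targets did not pass the test. Irs2, an insulin receptor substrate that FOXO induces in liver, was at -0.0556 ± 0.368, Ccng2, a cyclin of quiescent cells, at 0.0231 ± 0.287, and Txnip, an inhibitor of glucose uptake, at -0.227 ± 0.455. Tsc22d3 was at -0.588 ± 0.324 (adjusted p = 0.420). Gadd45a, a stress-response gene, was at -1.15 ± 0.368 (adjusted p = 0.0682). The 7 falls became 3 without run A and 4 without run C.

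The promoters of the genes that changed were compared for short motifs, since FOXO proteins bind GTAAACA and the E-box CACGTG is bound by MYC, its partners and, in a related form, HIF-1. RefSeq sequences on the rat assembly GRCr8, from 250 bases before to 50 after each annotated start, matched 5364 of the 6502 genes. On either strand, GTAAACA was in 7 of the 72 promoters of genes that fell (9.72%), in 0 of the 81 of genes that rose and in 127 of all 5364 (2.37%). The 7 genes were Ypel3, Pcmtd2, Etv5, Oxa1l, Dhx40, Tprg1l and Acsm3, of which Ypel3 is on the FOXO list. CACGTG was in 18 promoters of genes that rose (22.2%), in 7 of those that fell (9.72%) and in 510 of all (9.51%). Those 18 included Ldha and Bnip3 of the glycolysis and HIF-1 list, Atic of purine synthesis and Srm, spermidine synthase. The cores of the sterol response element (TCACCCC) and of the ATF4 site (TGATGCA) were in 1 promoter each of the genes that rose (1.23%), in 6 (8.33%) and 1 (1.39%) of those that fell, and in 5% and 2.01% of all. The mean GC content was 62.4% for genes that rose, 60.1% for genes that fell and 60.6% for all, and its part in these shares was not tested. CACGTG reads the same on both strands, and none of the 4 promoters shown holds both motifs. A match describes the letters in a window and is not evidence of binding.

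The promoters of the pair of genes with a forkhead match that fell most, and of the pair with an E-box that rose most, are shown 5′ to 3′ on the gene's strand, with the matches in capitals.
Ypel3, chr1:190814706-190815005 (+ strand): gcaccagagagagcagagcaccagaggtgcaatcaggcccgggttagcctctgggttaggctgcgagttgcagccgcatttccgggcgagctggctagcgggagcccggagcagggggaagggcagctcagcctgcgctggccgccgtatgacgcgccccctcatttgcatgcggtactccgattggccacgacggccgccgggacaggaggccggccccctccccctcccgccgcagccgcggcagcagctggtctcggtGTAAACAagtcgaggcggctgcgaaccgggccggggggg
Pcmtd2, chr3:189337565-189337864 (+ strand): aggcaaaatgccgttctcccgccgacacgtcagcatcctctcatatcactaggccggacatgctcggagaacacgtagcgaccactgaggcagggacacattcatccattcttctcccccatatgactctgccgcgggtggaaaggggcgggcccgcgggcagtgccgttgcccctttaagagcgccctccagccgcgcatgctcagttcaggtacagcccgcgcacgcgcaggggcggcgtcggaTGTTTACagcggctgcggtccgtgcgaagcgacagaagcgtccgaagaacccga
Ldha, chr1:106507842-106508141 (+ strand): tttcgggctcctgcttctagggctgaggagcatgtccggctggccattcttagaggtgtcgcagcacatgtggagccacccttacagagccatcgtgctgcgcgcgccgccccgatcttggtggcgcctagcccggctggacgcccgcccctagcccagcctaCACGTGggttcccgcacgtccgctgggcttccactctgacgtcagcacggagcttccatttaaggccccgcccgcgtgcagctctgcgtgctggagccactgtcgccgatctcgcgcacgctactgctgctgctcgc
Bnip3, chr1:203154913-203155212 (- strand): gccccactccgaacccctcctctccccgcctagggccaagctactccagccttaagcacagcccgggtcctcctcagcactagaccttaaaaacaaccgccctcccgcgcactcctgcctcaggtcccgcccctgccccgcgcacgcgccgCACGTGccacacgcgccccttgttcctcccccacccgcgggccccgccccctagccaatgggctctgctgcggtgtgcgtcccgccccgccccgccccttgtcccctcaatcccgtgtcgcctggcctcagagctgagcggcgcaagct
In Ypel3 the forkhead letters begin 12 bases into the transcribed sequence, and in Pcmtd2, where they lie on the opposite strand, at -4. The E-box begins at -87 in Ldha and at -99 in Bnip3. Ypel3 fell by 2.09 ± 0.269 and Pcmtd2 fell by 1.496 ± 0.355, while Ldha rose by 1.35 ± 0.331 and Bnip3 by 1.71 ± 0.387.

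Other metabolic genes rose with insulin. Dhodh, a mitochondrial enzyme of pyrimidine synthesis, had the largest rise of the named genes, 2.48 ± 0.531 (adjusted p = 0.001401). Its vehicle scores ran from -5.79 through 0.112 to 3.48 and its insulin scores from -3.51 through 2.15 to 6.98, higher in 26 of 28 pairs. Run C contributed 5.27 and run D 0.0941, and the gene was not called without run A or without run C (adjusted p = 0.0843 and 0.322). Over all genes with a symbol 1.37% rose and 1.34% fell, and the median was 0.0229. Of 18 measured genes of nucleotide and one-carbon metabolism, 3 rose and 0 fell, with a median of 0.313. Beside Dhodh these were Mthfd1l, a mitochondrial folate enzyme (1.44 ± 0.347), and Atic, which makes the last steps to the purine IMP (0.617 ± 0.178), and neither was called without run A or without run C. Nampt, the enzyme that recycles nicotinamide to NAD, rose by 1.90 ± 0.570 (adjusted p = 0.0464). Its lowest vehicle score was -7.65 and its lowest insulin score -2.04, and it was not called in any of the 4 sets of 3 runs.

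Genes of iron, redox and fat handling were also among the 12 largest rises. Tfrc, the transferrin receptor, rose by 1.84 ± 0.555 (adjusted p = 0.0478), with 5.30 in the lowest rapamycin dose and -0.223 in the lowest paclitaxel dose. Nqo1, a quinone reductase driven by the oxidative stress factor NRF2, rose by 1.58 ± 0.401, and Gstp1, a glutathione transferase, by 1.03 ± 0.288. These were the 2 of 18 measured pentose phosphate and NRF2 target genes that rose, with 0 that fell. The shares over all genes with a symbol were 1.37% and 1.34%. G0s2, an inhibitor of the fat-splitting enzyme ATGL, rose by 1.88 ± 0.515. Apln, the vascular peptide apelin, rose by 1.86 ± 0.429, and by 1.92 ± 0.488 at its other probe. Tmem106a rose by 2.32 ± 0.358 (adjusted p = 1.28e-06), with 2.87, 0.268, 4.93 and 1.22 in runs A to D, and was not called without run C (adjusted p = 0.0609). Tfrc, Nqo1 and G0s2 were not called without run A, C or D, nor Apln without A or C, and Gstp1 not without A, B or D.

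Genes of signalling and of the vessel wall were among the largest falls. Arg1, arginase 1, which competes with nitric oxide synthase for arginine, fell by 1.77 ± 0.302 (adjusted p = 1.91e-05). Its vehicle scores ran from -0.548 through 0.692 to 2.91 and its insulin scores from -3.53 through -0.913 to 1.52, lower in 24 of 28 pairs and in each run (-2.43, -1.07, -2.65 and -0.913). Psen2, a catalytic subunit of γ-secretase, fell by 1.86 ± 0.285 in 26 of 28 pairs. Gja5, the gap junction protein connexin 40, fell by 1.61 ± 0.455 (adjusted p = 0.0304), with run differences of -1.44 to -1.79, and was not called in any of the 4 sets of 3 runs. Ccn1, a matricellular protein of the immediate early class, fell by 1.47 ± 0.390. Emp2, a tetraspan membrane protein, fell by 1.91 ± 0.369 and by 1.77 ± 0.387 at its other probe. Tcp11l2 (-1.94 ± 0.294), Fam180a (-2.09 ± 0.427), Pcmtd2 (-1.496 ± 0.355) and Bcas3 (-1.37 ± 0.273) complete the 12 largest falls. Of these 12 genes, 7 were called without run A and 6 without run C, against 4 and 2 of the 12 largest rises.

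Growth factor genes gave 1 call. Igf1, the ligand of the IGF-1 receptor, fell by 1.33 ± 0.392 (adjusted p = 0.0405), the 1 of 9 measured genes of that family that did. In DMSO its scores in runs A to D were -0.404, -0.207, 0.857 and 2.67 with vehicle and -2.09, -1.80, -0.811 and 0.656 with insulin. In that condition insulin was the lower array in each of the 4 runs, though the arms overlapped. Igf1 was not called without run A, C or D. Igfbp4, a binding protein that holds IGF-1 in check, was at 0.727 ± 0.374 (adjusted p = 0.373). Of 20 immediate early genes, 2 fell (Ccn1 and the nuclear receptor gene Nr4a2, -0.687 ± 0.205), 0 rose, and 19 lay below 0, with a median of -0.253. Over all genes with a symbol 1.34% fell and 53.5% lay above 0. Neither Ccn1 nor Nr4a2 was called without run A or without run C, and Nr4a2 was not called in any of the 4 sets of 3 runs.

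Genes of the insulin pathway itself did not pass the test. Over all genes with a symbol 1.37% rose and 1.34% fell, so lists this short could hold 0 calls without differing from other genes. Of 16 measured genes of the receptor and PI3K-AKT pathway 0 were called, with a smallest adjusted p of 0.0516 for Pik3ca, a catalytic subunit of PI3K (-0.810 ± 0.247). Of 18 genes of the mTOR complexes and their regulators 0 were called, with Ddit4, an inhibitor of mTOR, at 0.926 ± 0.357 (adjusted p = 0.165) and higher in 24 of 28 pairs. Lipid synthesis is a known target of insulin in liver and fat. Here 0 of 16 sterol genes (median 0.154) and 0 of 13 fatty acid genes (median 0.221) were called. Fasn, fatty acid synthase, was at 0.278 ± 0.292 (adjusted p = 0.734), from 1.48 in run A and between -0.278 and -0.0313 in the other runs. Hk2, Srebf1 and Pik3ip1 were not analysed here.

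Protein folding and turnover genes gave few calls. Counts of members above 0 are read against 53.5% of all genes with a symbol (3477 of 6502). Counts of calls are read against the 1.37% of those genes that rose and the 1.34% that fell. Of 17 heat shock genes 2 rose, the mitochondrial chaperonin pair Hspd1 (0.997 ± 0.260) and Hspe1 (0.951 ± 0.279), and 15 lay above 0, with a median between -0.06 in run D and 0.813 in run A. Of 14 endoplasmic reticulum chaperones 0 were called, and all 14 lay above 0 with a median of 0.518, between 0.00157 in run B and 0.873 in run C. Of 26 proteasome subunits 1 rose (Psmb6, 0.583 ± 0.175) and 24 lay above 0. Among the 27 translation factors Eif3b rose (0.742 ± 0.188, and 0.148 at its other probe) and Eif2s3 fell (-0.694 ± 0.196). Nupr1, a stress-response regulator, fell by 0.700 ± 0.205, the 1 of 20 ATF4 targets and amino acid supply genes that was called. Atp5mc3, a subunit of ATP synthase, rose by 0.712 ± 0.189, the 1 call among 38 respiratory chain genes. None of these 7 named genes was called without run A or without run C.

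Cell cycle genes gave few calls. Over all genes with a symbol 1.37% rose, 1.34% fell and 53.5% lay above 0. Of 27 DNA replication and G1/S genes 1 rose (Pold1, the catalytic subunit of DNA polymerase δ, 0.744 ± 0.217) and 20 lay above 0, with a median of 0.297. Of 19 mitosis genes 0 were called, and 18 lay below 0, with a median of -0.684 and values down to -1.36 for Cenpf, a centromere protein. The mitosis median was -0.924, -0.834 and -1.12 in runs A, B and C and 0.486 in run D. Stmn1, which destabilises microtubules and is high in dividing cells, fell by 1.19 ± 0.350 (adjusted p = 0.0400), and was not called without run A, B or C. Pold1 was not called without run A, C or D.

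Marker lists of cell types that an explanted culture could hold gave 0 calls. This was the case for 15 contractile smooth muscle genes (median 0.0294), 7 endothelial, 8 leukocyte, 4 adventitial fibroblast and 6 cartilage and bone markers. Over all genes with a symbol 1.37% rose, 1.34% fell and 53.5% lay above 0. At those shares lists this short would often hold 0 calls, so an absence of change is not shown. The fibroblast median, -0.379, came with -1.22 in run A and between -0.267 and 0.0274 in the other runs. Of 21 genes abundant in pup tissues, which make up the reference RNA, 1 fell (the lung surfactant gene Sftpb, -0.870 ± 0.247) and 19 lay below 0, with a median of -0.324. The list's lowest value, -2.43, was also the lowest of all genes with a symbol, and that gene was not called. Its median was -0.530, -0.880, 0.242 and -0.04 in runs A to D. Sftpb was not called without run A, B or C. The part of this shift in the results above was not tested.

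**Figure D3:**
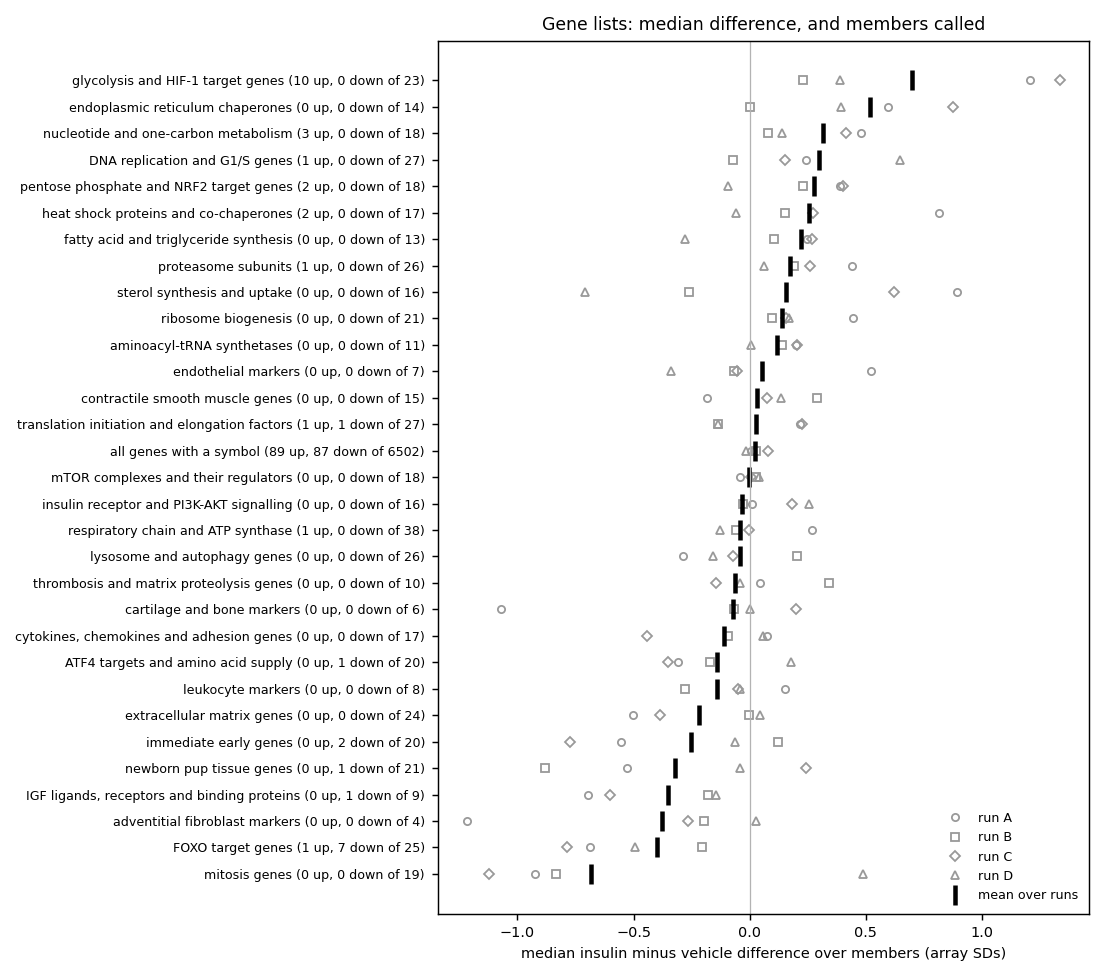
Median insulin minus vehicle difference (array SDs) over the measured members of 30 gene lists and over all 6502 genes with a symbol, as the mean over runs (black bars) and in each replicate run (grey symbols); labels give the members called higher and lower. The glycolysis and HIF-1 list (10 of 23 higher) stands at the top and the mitosis list (0 of 19 called, median -0.684) at the bottom, with run D on the other side of 0 for mitosis.

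In each drug condition the medians of the called probes kept the direction of the mean, with varying size. Over the 132 probes that rose, the median difference was 0.916 in DMSO, 1.18, 0.816 and 0.780 in rapamycin at 0.01, 1 and 100 ng/mL, and 0.919, 0.917 and 0.804 in paclitaxel at 0.01, 1 and 1000 ng/mL. Over the 148 that fell it was -0.961 in DMSO, -1.12, -0.685 and -0.694 in the rapamycin doses and -1.06, -1.19 and -0.876 in the paclitaxel doses, so the values nearest to 0 were those of the 2 higher rapamycin doses. These probes were chosen on the mean of the same values, so the medians are a description. In all, 93 of the 132 rises and 106 of the 148 falls had the same sign in all 7 conditions. With 4 arrays against 4, the separate conditions gave 9 calls in DMSO (0.0778%, 4 higher at 0.0346% and 5 lower at 0.0432%), 3, 1 and 0 in the rapamycin doses (0.0259%, 0.00864% and 0%), and 2, 17 and 3 in the paclitaxel doses (0.0173%, 0.147% and 0.0259%). The 17 calls in paclitaxel at 1 ng/mL were 7 higher (0.0605%) and 10 lower (0.0864%). In rapamycin at 100 ng/mL limma called 0 probes, with 534 at an unadjusted p under 0.05.

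Of the 9 probes called in DMSO alone, 1 was also called in the mean over conditions. Prkx, a protein kinase gene, was at 5.62 ± 1.04 in DMSO and 0.987 in the mean, and Rtcb, an RNA ligase subunit, at -3.18 ± 0.591 and -0.121. The others with a symbol were Ola1 (higher) and Tmem53, Tpcn2, Igbp1 and Mthfs (lower). The one also called over all conditions was a second probe of Ola1 (0.562, adjusted p = 0.0236), while the first probe of that gene was at 0.456 (adjusted p = 0.396). All 7 are named after their values were seen. In paclitaxel at 1 ng/mL, Fam180a (-5.02 ± 1.13) and Tcp11l2 (-3.36 ± 0.777) were called again.

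**Figure D4:**
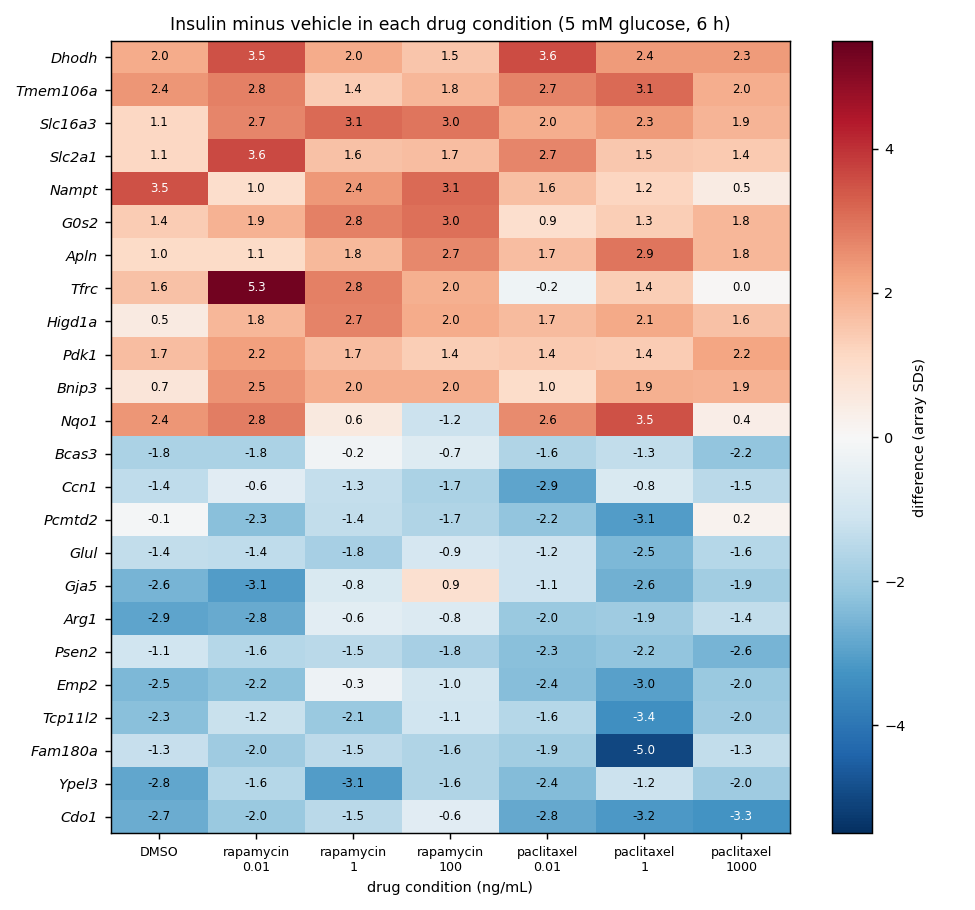
Insulin minus vehicle difference (array SDs, 4 against 4 arrays) in each of the 7 drug conditions for the 12 genes that rose most and the 12 that fell most in the mean over conditions (red, higher with insulin; blue, lower; doses in ng/mL). Ypel3 is lower in all 7 conditions, while Nqo1 is at 2.42 in DMSO and -1.17 in rapamycin at 100 ng/mL, with an SE of 1.06 in each condition.

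Rapamycin inhibits mTOR, so the insulin response at its 2 higher doses was tested against that in the other 5 conditions. Limma called 0 of 11575 probes (0%), with 560 at an unadjusted p under 0.05, fewer than the share of 0.05 expected with no effect. For Slc2a1 the difference between responses was -0.429 ± 0.806 (95% interval -2.02 to 1.16). In DMSO its mean was 0.966 ± 1.14 (SD, n = 4) with vehicle and 2.10 ± 1.86 with insulin, and in rapamycin at 100 ng/mL -2.12 ± 1.19 and -0.430 ± 1.28. Both arms of Slc2a1 were thus lower under 100 ng/mL rapamycin, while the insulin difference was 1.14 in DMSO and 1.69 there. For Ypel3 the difference between responses was -0.373 (interval -1.55 to 0.803) and for Pdk1 -0.254 (interval -1.56 to 1.05).

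Other genes had values farther from 0 in this test without a call after adjustment. Igf1 was below 0 in 5 conditions and at 0.762 and 0.512 in rapamycin at 1 and 100 ng/mL, a difference between responses of 2.76 ± 0.868 (interval 1.04 to 4.47, adjusted p = 0.997). Nqo1 (-2.64, interval -4.40 to -0.889) and Gstp1 (-2.11, interval -3.36 to -0.847) had values below 0 in this test. These intervals are not adjusted for the 11575 tests, so they do not show a difference. For the highest paclitaxel dose against the other 6 conditions 1 probe (0.00864%) was called, G6pc1, the glucose-6-phosphatase of liver and kidney, at 6.12 ± 1.26 (adjusted p = 0.0336). It rests on a single array, the insulin array of run A with a score of 21.1, and it was not called when any 1 run was left out.

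The same comparison at 25 mM glucose and 6 h used 56 other arrays and gave 123 calls (1.06%), 66 higher (0.57%) and 57 lower (0.492%). Without run C 0 were called, without run A 20 and without run B 245. Of the 132 probes that rose at 5 mM, 130 were above 0 at 25 mM and 45 were called higher; of the 148 that fell, 147 were below 0 and 40 were called lower. No probe was called in opposite directions. Over all 11575 probes 49.1% lay above 0 at 25 mM and 50.9% below. The 85 shared calls were 30.4% of those at 5 mM and 69.1% of those at 25 mM. Across all 11575 probes, which are not independent, the differences correlated with r = 0.544.

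In the glycolysis and HIF-1 list 12 of 23 genes rose at 25 mM (0.661% of all genes with a symbol rose there and 0.569% fell). Slc16a3 rose by 2.83 ± 0.431 and Bnip3 by 2.15 ± 0.387, as did Higd1a outside the list, by 2.60 ± 0.432. Limma called 0 probes for the difference between the responses at 5 and 25 mM. There 346 had an unadjusted p under 0.05, fewer than the share of 0.05 expected with no effect. For Slc2a1 the difference between the responses was -0.0979 (95% interval -1.11 to 0.918). Igf1 was at -0.199 ± 0.392 at 25 mM, a difference from 5 mM of -1.13 (interval -2.23 to -0.0382, adjusted p = 0.999). Ypel3 fell at both glucose levels, by 1.73 ± 0.269 at 25 mM.

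At 24 h and 5 mM glucose the response was different for part of the genes. There 67 probes were called (0.579%), 45 higher (0.389%) and 22 lower (0.19%), and 7 of them had been called the same way at 6 h. Without run A 0 probes were called at 24 h, without run C 2 and without run B 146. Over the probes that had risen at 6 h the median difference at 24 h was 0.0956, and over those that had fallen it was -0.167. The correlation across all probes was 0.106. The difference between the hours was called for 44 probes (0.38%), 20 higher (0.173%) and 24 lower (0.207%) at 6 h than at 24 h.

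Glucose handling genes were among those whose response differed between hours. Slc2a1 was at -0.591 ± 0.364 at 24 h, a difference between hours of 2.55 ± 0.515 (adjusted p = 0.00784), and Pdk1 at -0.161 ± 0.299, a difference of 1.88 ± 0.423 (adjusted p = 0.0196). Tpi1 (1.88 ± 0.467) and Pgam1 (1.59 ± 0.365) were called likewise, so 4 of the 23 genes of the glycolysis and HIF-1 list were called, all higher at 6 h, and 0 of the list rose at 24 h (0.415% of all genes with a symbol rose there and 0.2% fell). Gstp1 rose at 6 h and fell by 1.19 ± 0.288 at 24 h, a difference of 2.22 ± 0.407 (adjusted p = 0.00189). Tmem106a is a gene that rose at both hours (1.36 ± 0.358 at 24 h, adjusted p = 0.0428).

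Other genes had a lower response at 6 h than at 24 h. Pimreg, a mitotic regulator, was at -1.24 ± 0.450 at 6 h and 1.22 ± 0.450 at 24 h, a difference of -2.46 ± 0.636 (adjusted p = 0.0447), with neither hour called by itself. Cdkn3, a phosphatase of cyclin-dependent kinases, was at -1.04 ± 0.399 and 1.33 ± 0.399, a difference of -2.38 ± 0.564, likewise with neither hour called, and Stmn1 differed by -1.93 ± 0.494. Cdkn1b fell at 6 h and was at 0.503 at 24 h, a difference of -1.36 ± 0.317. Of the 19 mitosis genes 0 were called for the difference, with 1 above 0 at 6 h and 18 at 24 h. Over all genes with a symbol 53.5% lay above 0 at 6 h, and over all probes 48.8% did at 24 h. Of the 27 DNA replication genes 0 were called, with a median difference between hours of -0.0436. The count of 44 fell to 0 without run A and to 2 without run C.

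**Figure D5:**
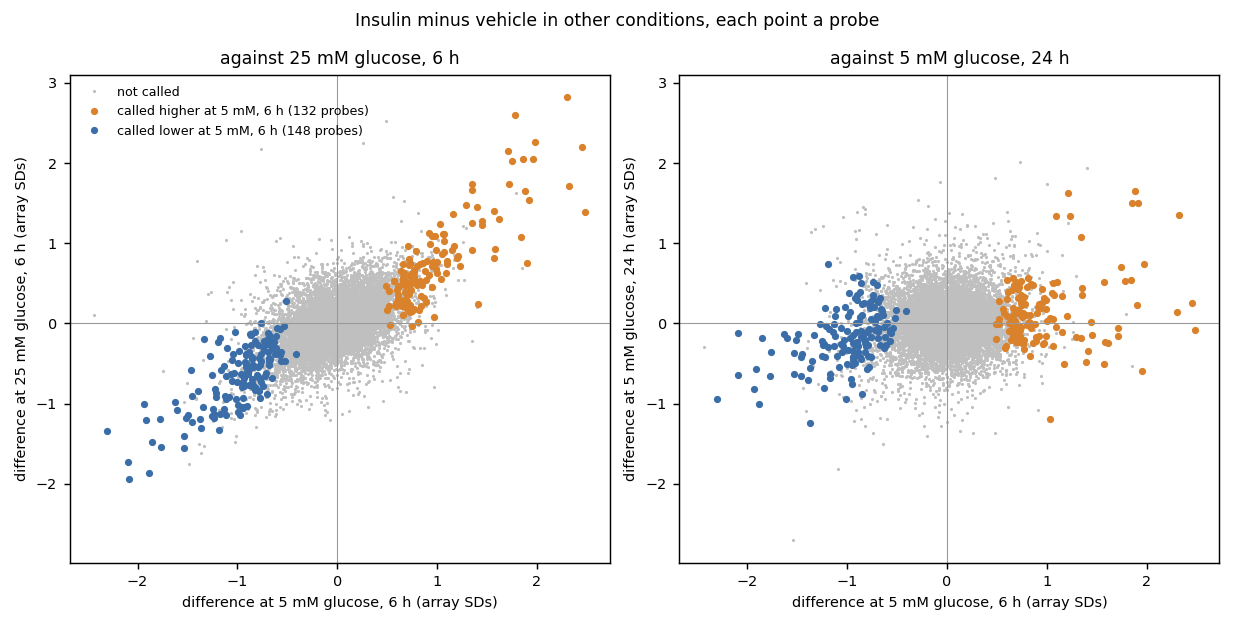
Insulin minus vehicle difference of each of 11575 probes (array SDs, mean over 7 drug conditions) at 5 mM glucose and 6 h (x axes) against that at 25 mM glucose and 6 h (left) and at 5 mM glucose and 24 h (right); coloured points are the 132 probes called higher and the 148 called lower at 5 mM and 6 h. The coloured points lie along a rising line on the left (130 of 132 and 147 of 148 with the same sign) and spread around 0 on the right (81 of 132 and 108 of 148). Over all probes 49.1% lay above 0 at 25 mM and 48.8% at 24 h.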

How the data were processed

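The authors deposited 1 table of standardized scores for 224 arrays and 11575 probes, with 0 missing values. Per the design text, the authors applied loess, dropped features below intensity 30, imputed missing values, removed components linked to the 4 replicate runs and standardized the data; the log base is not given in the sources used here. Labels and design text differ on serum (0.5% or 0.1%) and quiescence (16 or 72 h). A linear model of the scores was run in R 4.3.3 (limma 3.58.1): 56 group means and run as a fixed block on all 224 arrays, 165 residual degrees of freedom, eBayes, two-sided tests, Benjamini-Hochberg adjustment over all probes and a threshold of 0.05. The insulin contrast weights the 7 drug conditions equally. Replicate letters mark runs per the labels and design text; deviations from group means correlated at 0.0716 within a run and -0.0238 between runs. Symbols came from the platform annotation (7473 probes with 1, 2 with several, 4100 with none; 854 genes with several probes, read from the first). Of the called genes, 30 had several probes and 25 of these had probes that differed in being called, with 0 opposite calls.

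Genes named are the 12 largest rises and 12 largest falls among called genes with the same sign in 4 runs, up to 3 called members per direction of each list and interaction, and a fixed set whatever its result, 50 in all. Other members of the glycolysis and HIF-1 and FOXO lists, and Pik3ca, Cenpf, Srm and the genes matched to motifs, were named after their values were seen. Members, lists and motifs were chosen with earlier results of these data known. The procedure was tested on simulated data. Alternatives covered the block, scaling, weights, runs as the unit and leaving out runs or drug conditions. Of the arrays here 1 is titled REP, a term not explained in the labels; without its pair 226 probes were called.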

Additional observations from a re-analysis of the deposited data

Results flagged for a closer look

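In a check of 152 groups of 4 values (the 4 run differences of each named gene, and its 4 scores in single arms), 5 had a lowest or highest value far from the other 3; chance alone gives about 1 in 20. Fasn differed by 1.48 in run A. Among the 4 insulin arrays in DMSO, that of run C had the lowest Arg1 score, -3.53, and the highest Mthfd1l score, 4.02. G6pc1 had a score of 21.1 on the insulin array of run A at 1000 ng/mL paclitaxel, which gave its run A difference of 2.62 and a response at that dose that exceeded the other conditions by 6.12.

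The insulin response at 6 h differed from that at 24 h for 44 probes by the interaction test in limma, of which the 3 genes with the largest value in each direction follow. It was higher at 6 h by 2.55 for Slc2a1, 2.22 for Gstp1 and 1.88 for Pdk1. It was lower, with values of -2.46 for Pimreg, -2.38 for Cdkn3 and -1.93 for Stmn1. Without run A, 0 of 11575 probes were called in this test.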

How the results depend on the processing

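The 280 calls became 235 with no replicate block, 408 with run by hour as the block, 441 with run by hour by glucose, 434 in the 56 arrays alone, 446 in matched differences, 64 in DMSO and the lowest doses, 0 with runs as the unit, 29 to 432 without 1 run, 133 without rapamycin at 0.01 ng/mL and 165 without paclitaxel at 0.01 ng/mL (133 to 248 over drug conditions). Quantile, MAD scaling, array weights, robust eBayes and a random block gave 258 to 368. The 10 glycolysis and HIF-1 rises became 3 to 12 without 1 run, 0 with runs as the unit and 3 in the lowest doses; the 7 FOXO falls became 3 to 7, 0 and 3.

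With run by hour as the block, counts were 15 in DMSO (main 9), 8, 2 and 26 in rapamycin 0.01 and 1 and paclitaxel 1 ng/mL (3, 1 and 17), 194 at 25 mM (123), 112 at 24 h (67) and 133 for the hours (44). With no replicate block they were 3 for paclitaxel 1 ng/mL and 42 at 24 h. With quantile scaling they were 2 in DMSO, 0 in both 0.01 ng/mL doses, 5 and 1 in paclitaxel 1 and 1000 ng/mL and 0 for G6pc1. Without 1 run the ranges were 1 to 8 in DMSO; 0 to 4, 1 to 3 and 0 to 3 in rapamycin; 0 to 4, 2 to 14 and 0 to 2 in paclitaxel; 0 to 245 at 25 mM; 0 to 146 at 24 h; 0 to 51 for the hours; and 0 for the paclitaxel interaction.

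Of the 50 genes named by rule, the 40 that were called kept their sign in the 25 alternatives run; Fasn, G6pc1, Ccng2, Irs2 and Txnip, which were not called, changed sign in some. The random block, quantile scaling, array weights and robust eBayes moved none of them across the threshold; runs as the unit ended 40 calls, and leaving out run A or C ended 29 and 30, with fewer arrays in each fit. The cause of the differences between runs was not tested.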
